A study of Mus musculus with 20 samples.

Results

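Livers of 10 running mice, of the 20 female mice in the study, were compared by diet: 5 mice ate a diet with oral combined contraceptives (OC), 5 ate the vehicle diet, and all 10 had access to voluntary wheel running (VWR). The 10 libraries were taken by their group labels, OC.VWR and Con.VWR, and only genes with an intact line in the deposited count table were used. The other 10 mice had the same 2 diets without running (OC.Sed and Con.Sed), and they enter only the shared estimate of the spread and the last comparison. Each library was made from the liver RNA of 1 mouse, so replicates were separate animals, and replicate numbers follow deposit order and pair nothing. The contraceptive compounds, their dose, the length of feeding, the strain, the age and the distance run are not given in the sources used here.

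Combined contraceptives pair an oestrogen with a progestin, and both reach the liver, which carries receptors for sex steroids and makes most plasma proteins. The liver is also one of the most sexually dimorphic organs of the mouse: the pattern of growth hormone release, read through its receptor, JAK2 and STAT5, keeps major urinary proteins high in males and certain cytochromes P450 and sulfotransferases high in females. Hepatocytes further set iron uptake through the peptide hormone hepcidin, burn fatty acids under control of the receptor PPARA, and dispose of nitrogen through the urea cycle.

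Library totals over intact genes ran from 13886098 to 16134618 counts in running vehicle mice and from 12769367 to 14757592 in running OC mice. Of 35504 genes 23993 had an intact line, and 10207 of these passed the filter on low counts. On the first principal component of the 10 libraries, which held 49.6% of the variance, vehicle libraries scored 21.9 to 30.0 and OC libraries -38.1 to -16.6. The second, with 11.6%, set OC replicate 2 apart at -33.5. The skeletal muscle gene Mb had 396 counts in vehicle replicate 2 and 147 in OC replicate 5, against 0 to 7 in the other 8 running libraries. The 13 mitochondrially encoded genes were listed at 0 throughout. All 11 tested hepatocyte markers were present, with summed levels of 153843 to 213009 CPM (each library's counts brought to the same total) on vehicle and 93569 to 133547 CPM on OC. The albumin gene Alb, with means of 124700 CPM on vehicle and 72270 CPM on OC, made up most of these sums. By the test described next, 3 of the 11 markers were lower on OC, 1 was higher and 7 did not pass. Over all tested genes 6.06% were lower and 7.09% higher. The median log2 fold change of the 11 markers was -0.22, against 0.01 over all tested genes. Because Alb made up most of the sums, the sums do not measure the markers as a class.

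The contraceptive diet changed 1343 of 10207 genes in running mice (13.2%), at an adjusted p under 0.05 in edgeR's quasi-likelihood test with Benjamini-Hochberg adjustment, which gave every adjusted p of this report. Of these 724 were higher on OC (7.09%) and 619 were lower (6.06%), and 346 (3.39%) changed more than 2-fold, 232 upwards (2.27%) and 114 downwards (1.12%). The 5 OC values lay outside the vehicle range for 1060 genes (10.4%), above it for 555 (5.44%) and below it for 505 (4.95%). The call was lost for 680 of the 1343 when at least 1 of the 10 running libraries was left out, and the count was 817 without OC replicate 1 and 835 without OC replicate 3. A call was therefore named stable when it was kept in the same direction without each of the 10 libraries in turn, its fold moved by less than 1.5 times in each of those fits, and the 5 OC values all lay on one side of the 5 vehicle values. There were 535 stable calls (5.24% of the genes tested), 301 higher (2.95%) and 234 lower (2.29%). Of the stable calls 141 higher and 74 lower genes changed 2-fold or more. Directions of small changes depended on the scaling. With library totals alone the median of all genes moved from 0.01 to 0.12 on the log2 scale and 1390 genes were higher and 335 lower (80.6% higher against 53.9%). All 301 stable higher calls and 211 of the 234 stable lower calls kept their call under that scaling.

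**Figure D1:**
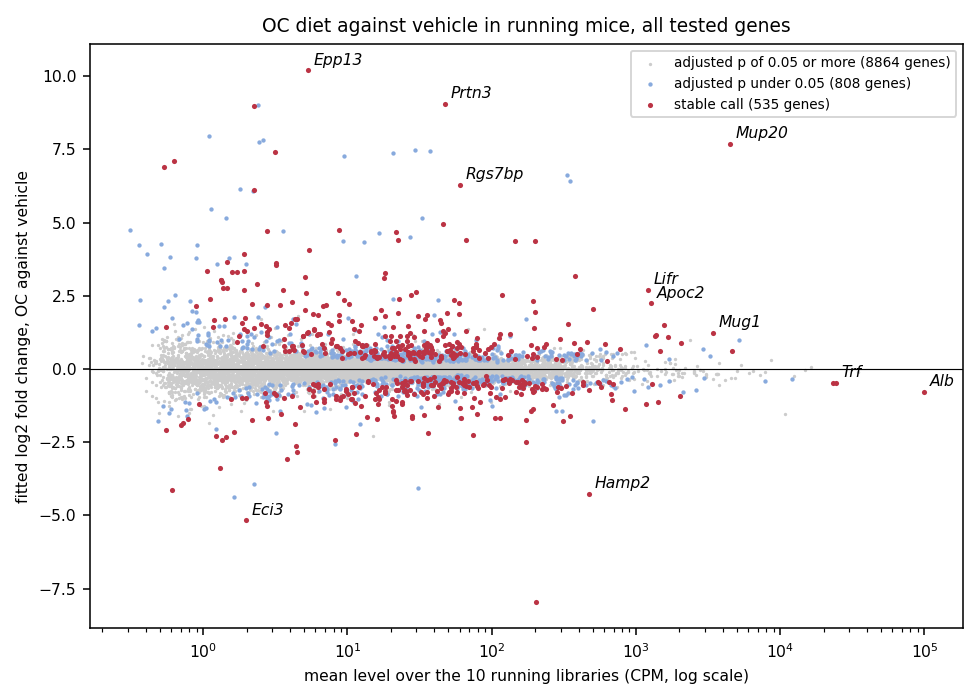
Mean level of each tested gene over the 10 running libraries (CPM, log scale) against the fitted log2 fold change of OC against vehicle. Red points are the 535 stable calls, blue points the other 808 calls and grey points the genes that did not pass; the fold plotted for Epp13, which had no count on vehicle, is a fitted value and not a measured fold.

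Hepcidin genes were among the strongest decreases, and their promoters are shown with that of Rgs7bp, the increase with the smallest adjusted p. Hamp encodes hepcidin, the hormone that blocks iron export into plasma, and Hamp2 is its neighbouring paralogue, so reads of the pair may be split by the counting. The sequences are the 250 bases before the RefSeq start on GRCm38.p6, on the minus strand and written 5′ to 3′. Capitals mark a match to TTCNNNGAA, the palindrome bound by STAT factors, which act downstream of growth hormone and interleukin-6 receptors.
Hamp (chr7:30944030-30944279): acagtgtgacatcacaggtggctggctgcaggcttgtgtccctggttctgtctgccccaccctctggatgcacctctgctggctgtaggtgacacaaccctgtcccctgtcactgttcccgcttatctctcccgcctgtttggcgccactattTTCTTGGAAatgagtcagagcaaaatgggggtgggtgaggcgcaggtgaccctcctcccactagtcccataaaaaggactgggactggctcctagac
Hamp2 (chr7:30924182-30924431): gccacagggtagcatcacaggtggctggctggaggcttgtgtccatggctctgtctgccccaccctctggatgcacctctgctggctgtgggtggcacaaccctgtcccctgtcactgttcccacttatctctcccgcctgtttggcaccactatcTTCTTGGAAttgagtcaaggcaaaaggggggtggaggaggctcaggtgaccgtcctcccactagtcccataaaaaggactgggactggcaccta
Rgs7bp (chr13:105054931-105055180): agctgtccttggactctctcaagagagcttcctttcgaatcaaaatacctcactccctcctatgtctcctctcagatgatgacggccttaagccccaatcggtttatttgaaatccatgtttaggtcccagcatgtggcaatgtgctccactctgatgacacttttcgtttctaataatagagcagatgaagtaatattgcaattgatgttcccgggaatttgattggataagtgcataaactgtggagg
Both hepcidin promoters held the same 9 letters, TTCTTGGAA, starting 97 bases before the start of Hamp and 94 bases before that of Hamp2, and the Rgs7bp window held no match. Searched on both strands, TTCNNNGAA occurred in 7.0% of 32851 mouse promoters of this length, in 5.9% of those of tested genes, in 4.6% of those of stable higher calls and in 6.8% of those of stable lower calls. The palindromic oestrogen response element, searched without mismatch, was in 0.1% of all promoters and in 0 of the 10053 promoters of tested genes. The 302 and 250 promoters of stable higher and lower calls belong to tested genes, so they could only give 0. The hormone response element ACANNNTGT, read by progesterone, androgen and glucocorticoid receptors, was in 5.8% of all promoters, 4.1% of those of tested genes, 5.3% of those of stable higher calls and 8.4% of those of stable lower calls. A match is a description of letters, not of a bound site.

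Hamp2 (chromosome 7, 30922372 to 30924681) read 468, 1258, 1043, 1226 and 502 CPM in vehicle replicates 1 to 5 and 58.1, 36.5, 46.8, 47.9 and 45.7 CPM in OC replicates 1 to 5. The 5 OC mice lay within a narrow band far under the lowest vehicle mouse (log2 fold change -4.26, SE 0.47, adjusted p = 2.36e-06). Hamp (chromosome 7, 30942368 to 30944032) read 1171, 689, 1926, 1178 and 1123 CPM on vehicle and 446, 440, 628, 415 and 434 CPM on OC. Its groups lay closer, with OC replicate 3 just under vehicle replicate 2 (log2 fold change -1.37, SE 0.28, adjusted p = 0.00274).

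Several other stable decreases of more than 2-fold began from lower levels than the hepcidins. Eci3, a peroxisomal enoyl-CoA isomerase, read 2.50 to 4.77 CPM on vehicle and 0 to 0.183 CPM on OC, so its fold is imprecise (log2 fold change -5.17, SE 0.58). Krt23, a type I keratin, fell from 6.84 ± 1.29 to 0.818 ± 0.385 CPM (SD, n = 5). Tcf24 and Olig1, both basic helix-loop-helix factors, fell from 7.79 ± 2.50 to 1.10 ± 0.893 CPM and from 2.41 ± 1.11 to 0.224 ± 0.166 CPM. Raet1d, a ligand of the natural killer receptor NKG2D, fell from 7.63 ± 3.99 to 1.22 ± 0.701 CPM. Acot3, a peroxisomal acyl-CoA thioesterase, read 183 to 356 CPM on vehicle and 25.4 to 103 CPM on OC.

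Rgs7bp (chromosome 13, 104945904 to 105054930), which anchors regulators of G-protein signalling at the membrane, read 1.77, 1.70, 1.14, 0.795 and 2.07 CPM on vehicle and 99.1, 130, 120, 58.2 and 183 CPM on OC. All 5 OC mice lay far above the highest vehicle mouse (log2 fold change 6.29, SE 0.33, adjusted p = 8.27e-11). Mup20 (chromosome 4, 62050234 to 62054158), the male urinary pheromone darcin, read 27.0, 34.5, 34.9, 34.5 and 88.7 CPM on vehicle and 13425, 6301, 11734, 4779 and 8348 CPM on OC. The OC mice differed among themselves, but none came near the vehicle range (log2 fold change 7.67, SE 0.78, adjusted p = 8.50e-07).

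Other stable increases began from almost no RNA. Prtn3, the serine protease proteinase 3, read 0.0633 to 0.335 CPM on vehicle and 81.6, 27.7, 98.4, 85.0 and 181 CPM on OC (log2 fold change 9.06, SE 0.73). It is a granule gene of neutrophil precursors, so the other 5 tested neutrophil markers stand beside it. They summed to 15.5 to 35.2 CPM on vehicle and 17.1 to 67.0 CPM on OC, with overlap. Lcn2 was a large part of these sums, at 8.62 to 30.5 CPM on vehicle and 8.24 to 48.45 CPM on OC. It did not pass (log2 fold change 0.08, SE 0.42), and the overlap of the sums largely reflects its spread. With Prtn3, 3 of the 6 tested markers were called higher, including S100a8 and S100a9, and 0 were lower. Over all genes 7.09% were higher and 6.06% lower. S100a8 and S100a9, which were not stable, read 0.561 to 6.22 and 1.19 to 7.25 CPM on OC and overlapped the vehicle mice, and Csf3r did not pass (log2 fold change 0.56, SE 0.22, adjusted p = 0.105). The part of such cells in the rise of Prtn3 was not tested. Asic2, an acid-sensing ion channel, had 0 counts over the 5 vehicle libraries and 327 over the OC libraries, which is at least 109.2-fold higher when the empty group is set to 3 counts in all. Epp13 had 0 and 757 counts, at least 252.8-fold higher. Capn8, a calpain protease, had 2 and 453 counts, or 226.9 times as many (exact 95% interval 62.4 to 1879.1). Tmeff2, a membrane protein with follistatin domains, rose from 0.0553 ± 0.0569 to 4.46 ± 2.18 CPM. Bounds and intervals cover counting error only.

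Among the increases with the smallest adjusted p was Isyna1, which makes inositol phosphate from glucose phosphate and read 4.88 to 6.78 CPM on vehicle and 164, 78.2, 119, 126 and 145 CPM on OC (log2 fold change 4.41, SE 0.28, adjusted p = 1.22e-09). Nebl, an actin-binding nebulin relative, rose from 0.624 ± 0.232 to 16.9 ± 5.35 CPM. Bmp7, a bone morphogenetic protein, rose from 2.02 ± 0.696 to 42.4 ± 19.9 CPM. Dpy19l3, a C-mannosyltransferase, rose from 3.73 ± 0.883 to 32.0 ± 9.72 CPM, and Osbpl3, a lipid transfer protein, from 2.86 ± 1.35 to 88.9 ± 30.3 CPM. Of the stable decreases, the smallest adjusted p was that of Acss3, a mitochondrial propionyl-CoA synthetase, at 106, 81.0, 89.0, 99.5 and 90.4 CPM on vehicle and 23.6, 30.2, 22.2, 40.0 and 30.1 CPM on OC (log2 fold change -1.67, SE 0.14, adjusted p = 8.83e-08). Plxna2, a semaphorin receptor, fell from 31.7 ± 4.37 to 10.5 ± 1.26 CPM and Tmem63a, a mechanosensitive channel, from 28.9 ± 4.81 to 11.99 ± 0.560 CPM.

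**Figure D2:**
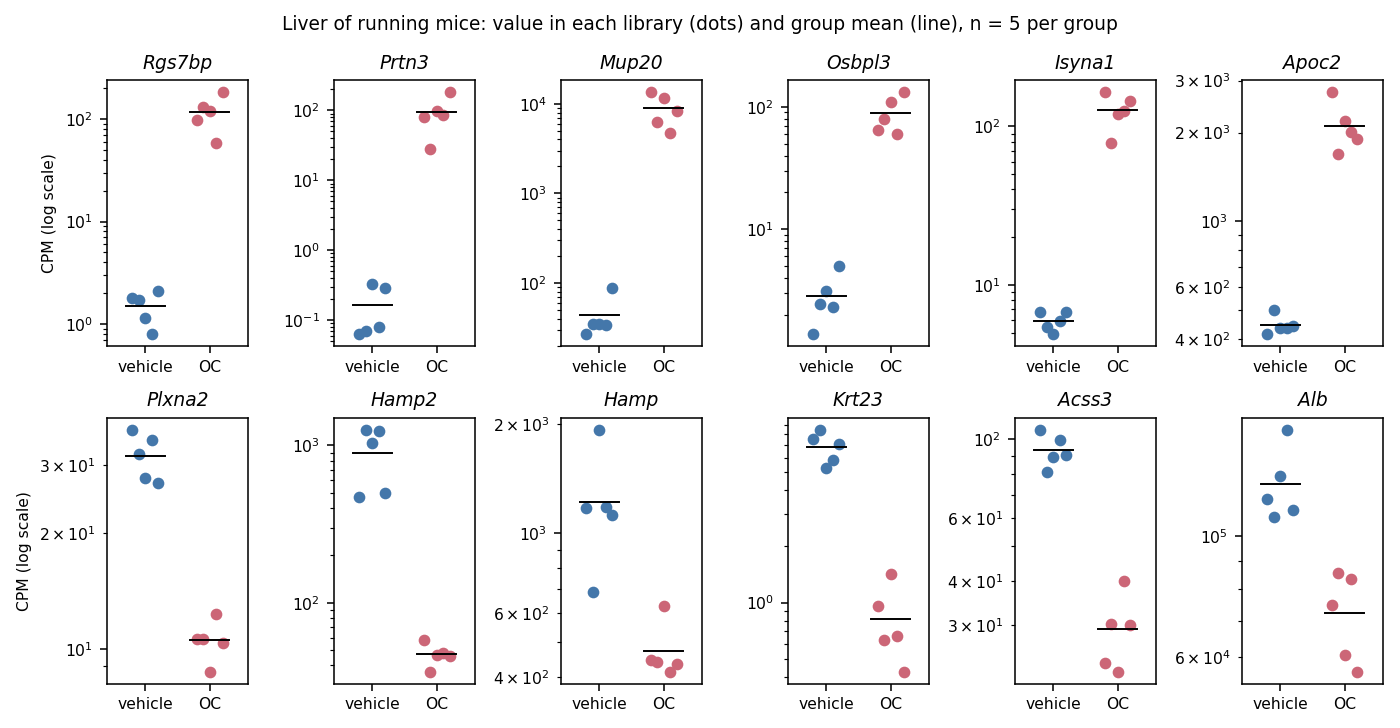
CPM (log scale) of 12 genes in each running library, with dots for mice and a line at the mean of 5. The 5 OC values lie on one side of the 5 vehicle values in all 12 panels, by a wide margin for Rgs7bp, Prtn3, Mup20 and Hamp2 and by a narrow one for Hamp and Alb.

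The liver's most abundant transcripts moved as well. Alb (chromosome 5, 90460897 to 90476602), which encodes serum albumin, read 117231, 108391, 129204, 156955 and 111786 CPM on vehicle and 74918, 85810, 60640, 83422 and 56537 CPM on OC (log2 fold change -0.79, SE 0.14, adjusted p = 0.000869). Trf, which encodes the iron carrier transferrin, fell from 28237 ± 3291 to 20199 ± 2928 CPM. Pigr, the receptor that carries IgA into bile, fell from 2637 ± 239 to 1387 ± 326 CPM. In the other direction Mug1 and Mug2, murinoglobulin protease inhibitors, rose: Mug1 went from 2043 ± 302 to 4754 ± 1328 CPM and Mug2 from 852 ± 88.5 to 1846 ± 146 CPM. Hp, which encodes the haemoglobin scavenger haptoglobin, rose from 3654 ± 445 to 5673 ± 765 CPM. Apoc2, the apolipoprotein that activates lipoprotein lipase, read 415, 501, 436, 435 and 443 CPM on vehicle and 2736, 1695, 2195, 2003 and 1896 CPM on OC (log2 fold change 2.24, SE 0.20). The OC mice formed one group well above a tight vehicle group, although GENCODE places a readthrough gene over Apoc2 whose reads the counting may not separate from it.

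Of all lists, the sex-biased genes of the mouse liver had the largest shares of calls. Only 22 of 39 listed male-biased and 14 of 35 listed female-biased genes had an intact line. Counts of these and of every later list stand beside 7.09% higher and 6.06% lower over all genes. Of 20 tested male-biased genes 17 were higher, 0 were lower and 3 did not pass, with a median log2 fold change of 4.54, against 7.09% higher and a median of 0.01 over all genes. Only 3 were stable, Mup20, Mup21 and C6. Mup21 rose from 13.3 ± 2.94 to 278 ± 158 CPM and C6, a terminal complement component, from 17.8 ± 3.33 to 92.2 ± 30.5 CPM. Major urinary protein genes are near-identical copies, so the values of single members are uncertain. Nudt7, a peroxisomal CoA diphosphatase, and Keg1 did not pass (log2 fold change 0.73, SE 0.30, and 0.66, SE 0.26). Of 14 female-biased genes 12 were lower and 0 higher, with a median of -1.42 and 7 stable calls. Hao2, a peroxisomal hydroxyacid oxidase, fell from 59.4 ± 10.5 to 13.1 ± 8.61 CPM and Acot4, a thioesterase beside Acot3, from 279 ± 50.5 to 107 ± 35.7 CPM. Vldlr, a lipoprotein receptor, fell from 30.1 ± 7.996 to 10.96 ± 2.30 CPM. Cd36, a fatty acid transporter, did not pass (log2 fold change -0.74, SE 0.25, adjusted p = 0.05004). The summed level of the female-biased list was 2187 to 2912 CPM on vehicle and 781 to 1432 CPM on OC, without overlap, and that of the male-biased list 2871 to 5433 and 10668 to 29585 CPM.

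In the growth hormone axis 1 of 16 tested genes was higher and 3 were lower, all stable, beside 7.09% higher and 6.06% lower over all genes. Stat5a, one of a pair of STAT5 factors, was higher in every OC mouse than in any vehicle mouse. It read 17.9 to 23.2 CPM on vehicle and 56.3, 42.8, 75.7, 44.2 and 116 CPM on OC (log2 fold change 1.68, SE 0.24, adjusted p = 6.04e-05). Jak2, the kinase of the growth hormone receptor, fell slightly, from 24.5 ± 1.69 to 18.7 ± 1.90 CPM. Igf1, the growth factor that growth hormone induces, read 828, 712, 825, 834 and 890 CPM on vehicle and 467, 691, 531, 642 and 538 CPM on OC (log2 fold change -0.51, SE 0.12). OC replicate 2 came close to the lowest vehicle mouse. Igfbp3, the main carrier of IGF1 in plasma, fell from 23.3 ± 4.02 to 13.3 ± 2.42 CPM, while the receptor gene Ghr did not pass (log2 fold change 0.09, SE 0.14).

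Receptors of the gp130 family bind interleukin-6-type cytokines. Of 11 tested genes of these receptors and their signalling 2 were higher and 0 lower, beside 7.09% higher and 6.06% lower over all genes. Lifr, the receptor for leukaemia inhibitory factor, read 361, 252, 244, 379 and 375 CPM on vehicle and 1685, 1317, 2884, 1037 and 3567 CPM on OC (log2 fold change 2.70, SE 0.29, adjusted p = 1.45e-06). The lowest OC mouse lay far above the highest vehicle mouse. Clcf1, a ligand of this receptor family, rose from 1.70 ± 0.529 to 3.80 ± 0.793 CPM. The shared subunit gp130 itself, Il6st, did not pass (log2 fold change -0.13, SE 0.11).

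Among steroid receptors and steroid enzymes 4 of 22 were higher and 4 lower, with 2 stable calls each way. Over all genes 7.09% were higher and 6.06% lower. Hsd17b2, which inactivates oestradiol by oxidation, read 119, 80.0, 103, 100 and 135 CPM on vehicle and 278, 242, 328, 259 and 323 CPM on OC (log2 fold change 1.41, SE 0.13, adjusted p = 1.81e-07). Srd5a1, a steroid 5-alpha-reductase, rose from 34.1 ± 7.02 to 60.9 ± 9.52 CPM. Hsd17b6, which oxidises androgen metabolites, fell from 525 ± 121 to 172 ± 76.9 CPM and Hsd17b13, a lipid-droplet enzyme, from 582 ± 43.9 to 356 ± 66.6 CPM. Greb1, a classical oestrogen-induced gene, had 3 counts over the vehicle libraries and 19, 10, 49, 3 and 85 on OC, or 55.4 times as many (18.6 to 271.5). Its groups did not overlap but its fold moved with single mice, so it was called and not stable.

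Enzymes that handle drugs and other foreign compounds changed in both directions. Of 5 tested targets of the xenobiotic receptors CAR and PXR 4 were higher, and most of the 43 listed targets were not used because their lines were not intact. Ces2a, an intestinal and hepatic carboxylesterase, read 162, 183, 198, 226 and 207 CPM on vehicle and 799, 865, 875, 732 and 769 CPM on OC (log2 fold change 2.05, SE 0.18, adjusted p = 1.34e-07). Both groups were tight and far apart. Por, the reductase that feeds electrons to all microsomal cytochromes P450, rose from 1063 ± 252 to 2280 ± 314 CPM. Alas1, the first enzyme of heme synthesis, rose from 850 ± 259 to 1887 ± 437 CPM and Cyb5a, cytochrome b5, from 1434 ± 216 to 2653 ± 280 CPM. Cyb5r3, a reductase of cytochrome b5, did not pass (log2 fold change -0.19, SE 0.19). In the list of carboxylesterases and flavin monooxygenases 7 of 18 were lower, with 4 stable, and 4 were higher, with 2 stable. The lower count was 4 without vehicle replicate 3 or 4 or OC replicate 1 or 3. Ces1b fell from 172 ± 21.6 to 54.3 ± 10.4 CPM, Ces1e from 206 ± 33.0 to 113 ± 21.5 CPM and Ces1f from 505 ± 41.8 to 351 ± 56.4 CPM. Ces1c and Ces1d, the most abundant of these tandem copies, did not pass (log2 fold changes -0.14, SE 0.11, and -0.16, SE 0.17). Fmo5 rose, from 1156 ± 171 to 1772 ± 481 CPM.

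Plasma protein genes were called in both directions, and their counts stand beside 7.09% higher and 6.06% lower over all genes. Among carriers of hormones, vitamins and metals 4 of 19 were higher and 4 lower, with 3 and 2 stable. Afp, fetal albumin, rose from 0.497 ± 0.190 to 5.91 ± 3.02 CPM and Orm3, an orosomucoid, from 9.45 ± 4.13 to 35.6 ± 9.51 CPM, while Selenop, the selenium carrier, did not pass (log2 fold change 0.06, SE 0.15). In the complement list 5 of 26 were higher and 2 lower. All 4 stable members rose: C6, C7 from 0.889 ± 0.143 to 2.99 ± 0.677 CPM, C9 from 314 ± 17.5 to 600 ± 54.5 CPM, and the inhibitor C4bp from 600 ± 65.2 to 953 ± 113 CPM. C6, C7 and C9 are subunits of the membrane attack complex. Of 25 coagulation and fibrinolysis genes 3 were higher and 2 lower, and the 2 stable ones were Mug1 and Mug2. Of 19 acute phase genes 4 were higher and 1 lower, with Hp and Orm3 stable.

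Beyond the hepcidins and Trf, the list of iron handling had 5 of 25 lower and 2 higher. Tmprss6, the protease that restrains hepcidin signalling, fell from 640 ± 65.7 to 460 ± 44.3 CPM, and Bmp7 was the stable increase. The ferritin genes Fth1 and Ftl1, which store iron, did not pass (log2 fold changes 0.10, SE 0.08, and -0.18, SE 0.11).

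Most of the calls among fat metabolism genes were decreases. Among 28 tested genes for burning fatty acids, with other targets of PPARA, 14 were lower, 1 was higher and 13 did not pass, with a median of -0.44 and 7 stable decreases. The lower count was 7 to 9 without vehicle replicate 1, 3 or 5 or OC replicate 1, 3 or 5, and 8 with library totals alone. Acaa1b, a peroxisomal thiolase, read 1454, 1433, 1906, 1308 and 2028 CPM on vehicle and 610, 980, 591, 821 and 573 CPM on OC (log2 fold change -1.19, SE 0.17, adjusted p = 9.78e-05). Ppara itself fell from 242 ± 7.94 to 141 ± 47.3 CPM, and Hadh, a mitochondrial beta-oxidation dehydrogenase, fell from 693 ± 94.2 to 449 ± 50.4 CPM. In fatty acid and triglyceride synthesis 11 of 33 were lower and 0 higher, with a median of -0.49 and 3 stable, and 5 to 7 without vehicle replicate 3 or 4 or OC replicate 1 or 3. Fads2, the delta-6 desaturase, fell from 1945 ± 425 to 902 ± 151 CPM, G0s2, an inhibitor of the lipase ATGL, from 267 ± 89.8 to 80.6 ± 42.0 CPM, and the adipogenic receptor gene Pparg fell from 14.0 ± 1.89 to 8.02 ± 1.18 CPM. The desaturase Scd1 varied too much to pass, at 4073 to 24796 CPM on vehicle and 3157 to 8781 CPM on OC. Among apolipoproteins and lipoprotein genes 7 of 33 were lower (3 or 4 without vehicle replicate 4 or OC replicate 1, 3 or 5) and only Apoc2 was higher. Pltp, a phospholipid transfer protein, fell from 103 ± 34.0 to 42.0 ± 5.86 CPM. Cholesterol synthesis had 1 of 28 lower, the SREBP chaperone Scap, from 170 ± 30.3 to 126 ± 5.83 CPM. In bile acid handling, where 7 of 42 genes could be tested, Klb, the co-receptor of FGF15 and FGF21, fell from 42.8 ± 5.58 to 23.7 ± 2.94 CPM, and Abcg2, an efflux pump, rose from 46.6 ± 4.36 to 60.6 ± 4.32 CPM.

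Nitrogen metabolism genes were also mostly lower where called. Of 43 genes of the urea cycle and amino acid breakdown 14 were lower and 1 higher, with a median of -0.30 and 8 stable decreases. Hal and Amdhd1, enzymes of histidine breakdown, fell from 456 ± 57.9 to 261 ± 41.0 CPM and from 252 ± 33.0 to 163 ± 21.5 CPM. Prodh2, a hydroxyproline dehydrogenase, fell from 370 ± 25.1 to 238 ± 21.7 CPM and Amt, a subunit of the glycine cleavage system, from 63.8 ± 16.4 to 37.4 ± 4.93 CPM. Oat, ornithine aminotransferase, read 1119, 872, 706, 1161 and 714 CPM on vehicle and 272, 432, 476, 326 and 694 CPM on OC, so the groups barely separated. Of the urea cycle itself Otc, ornithine transcarbamylase, fell from 633 ± 41.6 to 463 ± 41.5 CPM, while Cps1 and Ass1 did not pass (log2 fold changes -0.53, SE 0.18, and -0.38, SE 0.21). In sugar metabolism 4 of 33 were lower and 0 higher, with 1 stable, the gluconeogenic enzyme Fbp1, from 1516 ± 128 to 1057 ± 145 CPM, while Gapdh and Khk did not pass (log2 fold changes -0.14, SE 0.12, and 0.35, SE 0.21).

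Calls among genes of the cytosolic ribosome were all increases. Of 78 cytosolic ribosomal protein genes 28 were higher, 0 were lower and 50 did not pass, with a median of 0.43, and 5 were stable. Their summed level overlapped between groups, at 19476 to 29031 CPM on vehicle and 25533 to 41253 CPM on OC. The count depended on single mice, at 6 without OC replicate 1, 10 to 18 without OC replicate 3 or 4 or vehicle replicate 1, 3 or 4, and 48 to 50 without OC replicate 2 or 5 or vehicle replicate 2. Without the 3 libraries of the study that held muscle genes (vehicle replicate 2, OC replicate 5 and 1 sedentary OC library) it was 63, and with library totals alone 66. Rpl12 read 196, 326, 254, 221 and 304 CPM on vehicle and 651, 366, 563, 466 and 346 CPM on OC (log2 fold change 0.88, SE 0.18, adjusted p = 0.00305). OC replicates 2 and 5 lay just above the highest vehicle mouse and OC replicates 1 and 3 far above it. Rpl4 rose from 565 ± 29.3 to 688 ± 22.1 CPM, a call lost without the 3 muscle-containing libraries (adjusted p = 0.0563), whereas Rpl13a and Rps24 did not pass (log2 fold changes 0.59, SE 0.20, and 0.52, SE 0.21).

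Genes of protein folding in the endoplasmic reticulum, which secreted proteins pass on their way out, had 17 of 31 higher and 0 lower, with a median of 0.42 and 5 stable. The count was 8 without OC replicate 1, 11 without OC replicate 3 and 11 without the 3 libraries with muscle genes. Ern1, the sensor IRE1, rose from 74.3 ± 11.5 to 133 ± 27.6 CPM, and Ero1lb, an oxidase that drives disulphide formation, from 57.1 ± 9.43 to 98.3 ± 11.6 CPM. Sdf2l1, an induced chaperone partner, read 13.2 to 17.2 CPM on vehicle and 100, 24.8, 78.2, 27.4 and 49.9 CPM on OC (log2 fold change 1.84, SE 0.36). Selenos, a selenoprotein of protein retrotranslocation, rose from 72.2 ± 5.36 to 116 ± 20.3 CPM. The chaperones Hspa5 and Calr did not pass (log2 fold changes 0.51, SE 0.20, and 0.39, SE 0.16).

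**Figure D3:**
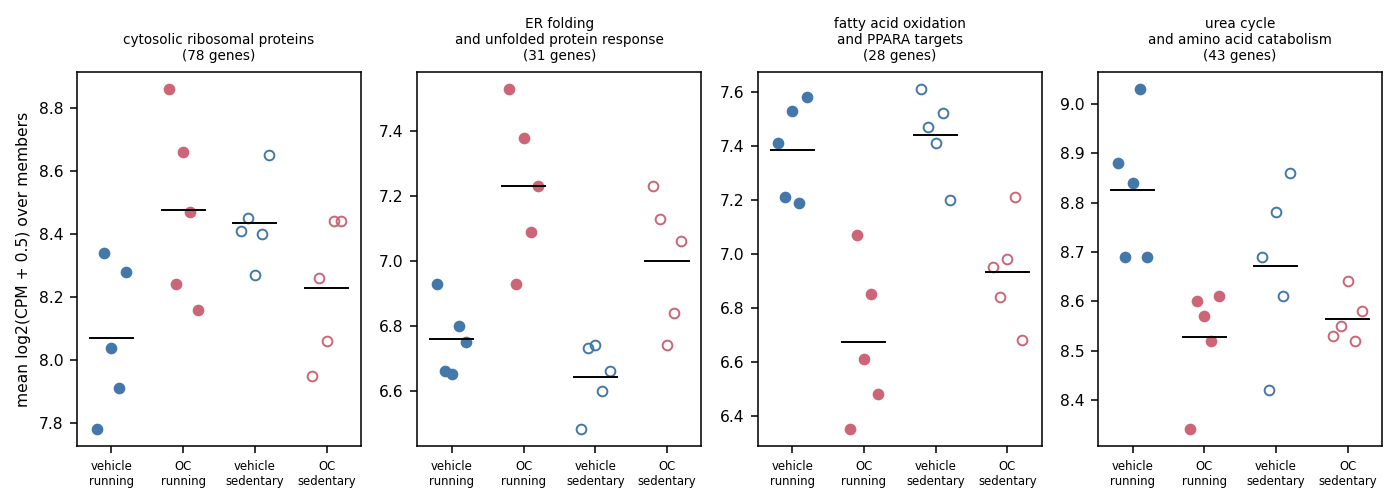
Mean log2(CPM + 0.5) over the members of 4 lists in each library (dots) with the group mean (lines); filled dots are running mice and open dots sedentary mice. By this measure, among running mice, the lists of fatty acid oxidation and of urea cycle genes lie lower on OC without overlap. ER folding genes reach the same level in a mouse of each diet, and ribosomal protein genes overlap. Summed levels overlap for fatty acid oxidation, at 10009 to 14318 CPM on vehicle and 6389 to 11207 CPM on OC. They also overlap for urea cycle genes, at 34152 to 47480 CPM on vehicle and 28007 to 36656 CPM on OC.

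The lists of mitochondrial genes are given beside shares of 7.09% higher and 6.06% lower over all genes. In respiratory complex I 3 of 49 nuclear genes were lower and 0 higher (median 0.03), the stable one being Ndufv1, from 181 ± 16.4 to 141 ± 6.02 CPM. In complexes II to V 2 of 30 were lower, neither stable. The mitochondrial ribosome had 6 of 78 higher and 1 lower, with Mrps6 and Mrps18a stable, and the higher count was 18 with library totals alone, 16 without OC replicate 2 and 2 or 3 without OC replicate 1, 3 or 4 or vehicle replicate 3 or 4. Mrps6 rose from 14.7 ± 1.51 to 28.4 ± 9.03 CPM. Of 41 redox and antioxidant genes 5 were higher (10 with library totals alone, 2 or 3 without vehicle replicate 1, 3 or 4 or OC replicate 1, 3 or 4) and 3 lower. Nnt, the transhydrogenase that supplies mitochondrial NADPH, fell from 86.7 ± 9.35 to 61.5 ± 7.97 CPM, Mgst3, a microsomal glutathione transferase, from 54.4 ± 6.99 to 35.0 ± 10.8 CPM, and Selenow rose from 149 ± 13.8 to 203 ± 34.1 CPM. Catalase (Cat) did not pass (log2 fold change -0.27, SE 0.13).

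Lists of secreted factors and signalling gave few stable calls, and their counts stand beside 7.09% higher and 6.06% lower over all genes. Of 25 hepatokine genes 8 were lower (4 or 5 without vehicle replicate 1 or 4 or OC replicate 1 or 3) and 2 higher, with Igf1 and Angptl6 stable. Angptl6, an angiopoietin-like factor, fell from 28.9 ± 3.46 to 19.9 ± 2.99 CPM. Of 17 clock genes only Noct, a rhythmic NADP(H) phosphatase, was called, at 81.3 ± 17.6 CPM on vehicle and 411, 310, 320, 190 and 356 CPM on OC (log2 fold change 1.96, SE 0.21, adjusted p = 2.08e-06). Of 20 immediate early genes 2 were higher and 2 lower. Egr1 read 119, 167, 108, 106 and 115 CPM on vehicle and 14.4, 27.3, 35.1, 30.4 and 21.9 CPM on OC (log2 fold change -2.26, SE 0.53, adjusted p = 0.00719), and Fosl2 rose from 17.7 ± 4.23 to 34.0 ± 7.93 CPM, while Zfp36 did not pass (log2 fold change -0.39, SE 0.22). In the integrated stress response 3 of 25 were higher and 4 lower, and Shmt2 did not pass (log2 fold change -0.20, SE 0.14). The cell cycle list had 3 of 39 higher and 1 lower, none stable. The interferon list had 1 of 34 higher, Bst2, from 160 ± 9.36 to 229 ± 39.2 CPM, and 3 lower, of which Gbp2 was stable, from 17.6 ± 6.87 to 7.37 ± 1.29 CPM.

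Markers of position and of other cells were then read, beside shares of 7.09% higher and 6.06% lower over all genes. Of 19 periportal genes 7 were lower, 6 of them stable, and 1 was higher, while of 16 pericentral genes 3 were lower and 1 higher. Csad, the taurine-making enzyme, was the pericentral increase, from 65.3 ± 25.1 to 323 ± 75.1 CPM, and Notum, a Wnt antagonist, fell from 63.9 ± 5.21 to 43.4 ± 6.28 CPM. In whole liver, fewer cells of a type and less RNA per cell cannot be told apart. Of 13 stellate cell and fibroblast markers 5 were lower and 0 higher, with a median of -0.43. That count was 2 or 3 without vehicle replicate 1, 2 or 5 or OC replicate 2, 3 or 4. Reln fell from 72.8 ± 8.44 to 41.7 ± 11.9 CPM and Ecm1 from 246 ± 23.6 to 146 ± 28.7 CPM, while Rgs5 and Dcn did not pass (log2 fold changes -0.79, SE 0.27, and -0.16, SE 0.16). Of 15 endothelial markers 1 was lower, Rspo3, from 7.40 ± 0.925 to 5.16 ± 0.553 CPM, a call lost with library totals alone (adjusted p = 0.0690), and Ramp2 and Eng did not pass (log2 fold changes 0.08, SE 0.07, and -0.19, SE 0.15). Of 13 macrophage markers only Itgam was higher, from 1.43 ± 0.420 to 3.97 ± 0.978 CPM, and the Kupffer cell gene Cd5l did not pass (log2 fold change 0.11, SE 0.13). Of 8 bile duct markers only Tspan8 was higher, at 0.716 to 3.28 CPM on vehicle and 70.0, 12.4, 42.8, 36.6 and 46.2 CPM on OC, and Spp1 did not pass (log2 fold change 0.56, SE 0.27). Of 21 genes of keratins and epithelial junctions 7 were lower and 2 higher. Dsp, desmoplakin, fell from 120 ± 9.99 to 78.9 ± 9.44 CPM and Tjp1, a tight junction scaffold, from 74.2 ± 6.72 to 53.8 ± 10.1 CPM, whereas the hepatocyte keratins Krt8 and Krt18 did not pass (log2 fold changes -0.44, SE 0.22, and 0.19, SE 0.19).

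**Figure D4:**
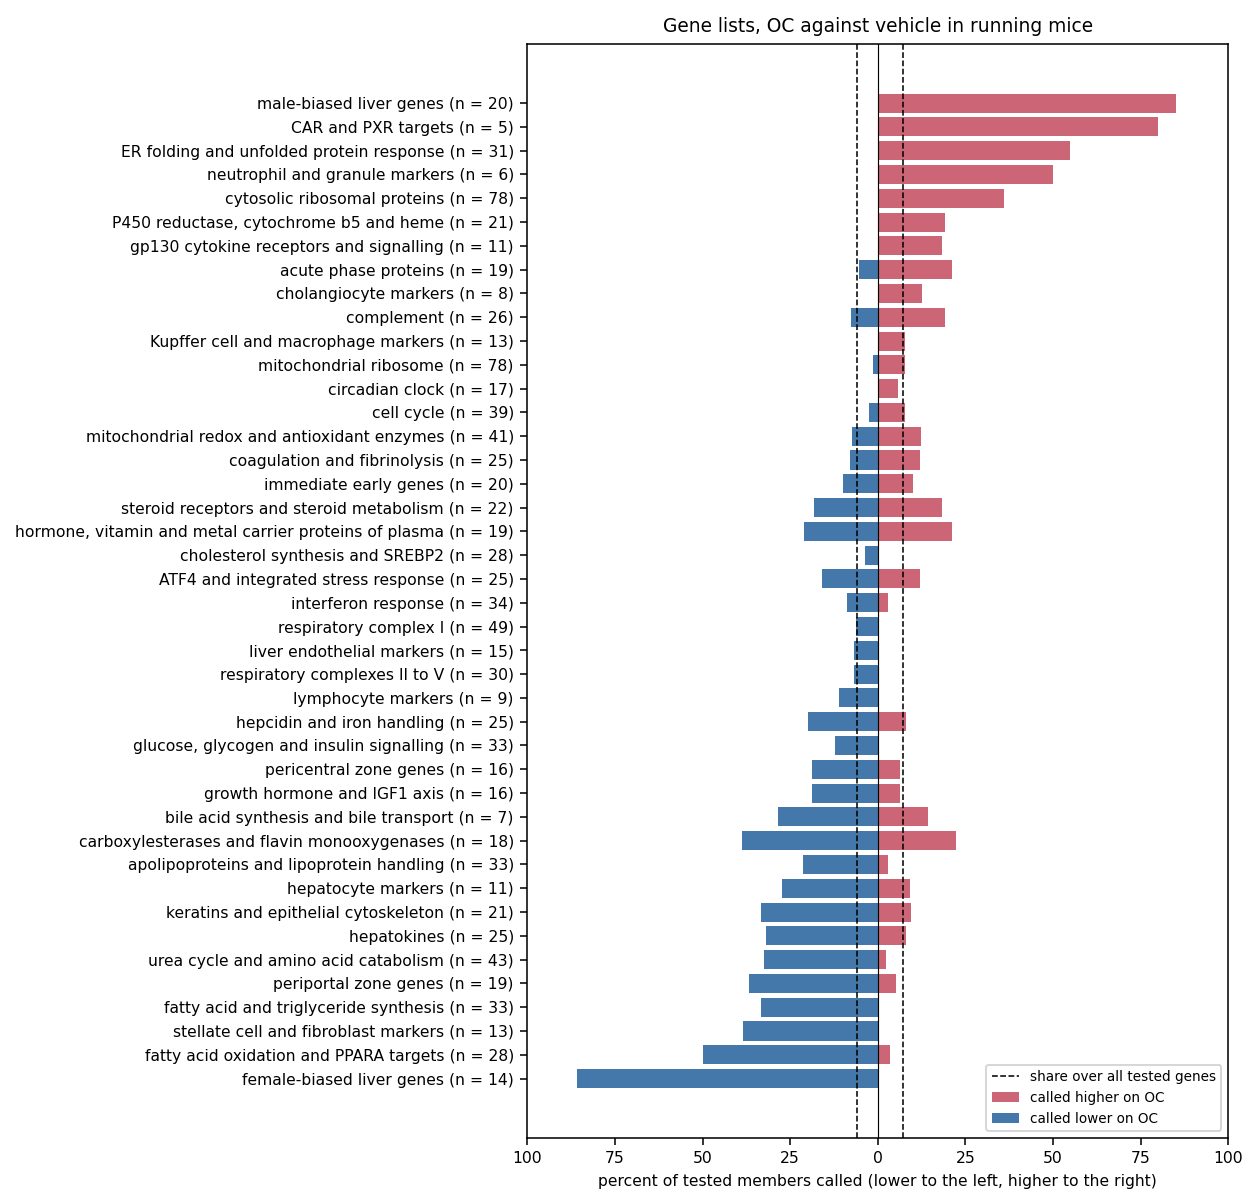
Percent of the tested members of each list that were called higher (red, to the right) or lower (blue, to the left) on OC in running mice, with dashed lines at the shares over all tested genes, 7.09% and 6.06%. The male-biased, CAR and PXR, and ER folding lists reach farthest to the right, and the female-biased and fatty acid oxidation lists farthest to the left; some lists share genes.

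The same diet contrast in the 10 sedentary mice, which shares no library with the running one, called 1665 genes (16.3%), 930 higher (9.11%) and 735 lower (7.2%). Of the 535 stable calls of running mice 515 had the same sign in sedentary mice and 354 were called there, 353 of them in the same direction. Of all calls 598 were made in both, which is 44.5% of the running and 35.9% of the sedentary calls, and 595 had one direction. Lifr had a log2 fold change of 2.60 in sedentary mice beside 2.70 in running mice, and Hamp2 had -4.61 beside -4.26. Rgs7bp had 5.18 beside 6.29, a difference of 1.11 (SE 0.45, adjusted p = 0.237). For some stable calls the sedentary value was small: Igf1 had -0.02 there, Rpl12 -0.06, Selenos -0.06 and Scap 0.14, none of which was called. The test of the difference between the diet effects of running and sedentary mice called 0 genes in edgeR. At an unadjusted p under 0.05 it found 1802 (17.7%), and DESeq2 called 33. For cytosolic ribosomal proteins the median was 0.43 in running and -0.22 in sedentary mice, with 0 called in the latter. The difference had an unadjusted p under 0.05 for 75 of 78 members and an adjusted p under 0.05 for 0.

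**Figure D5:**
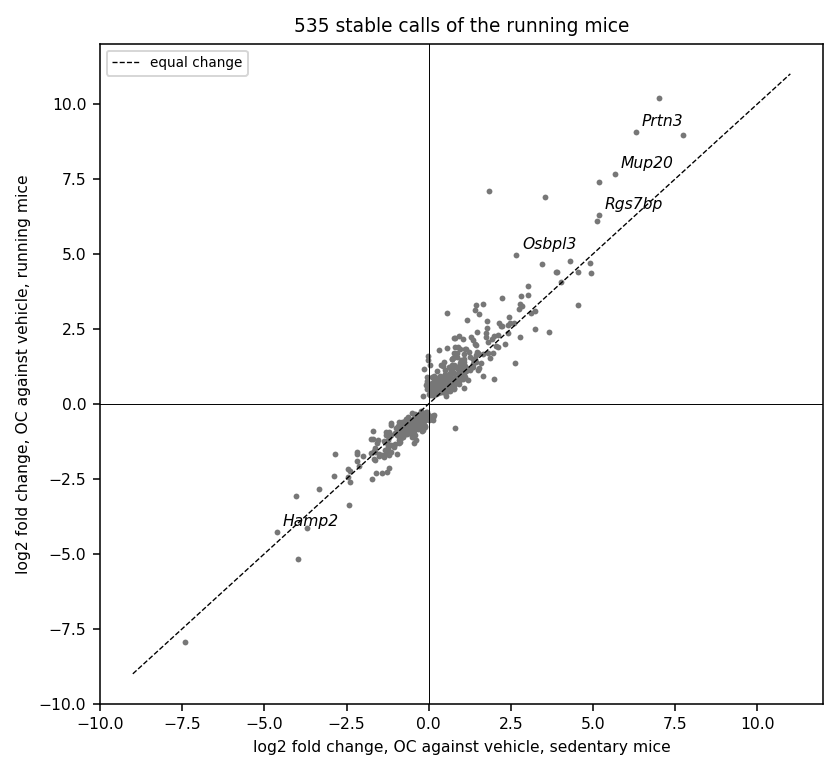
Fitted log2 fold change of OC against vehicle in sedentary mice (x) and running mice (y) for the 535 stable calls of the running mice, with a dashed line of equal change. Because the genes were chosen by their change in running mice, larger values on the y axis are built in; 515 of the 535 have the same sign on both axes.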

How the data were processed

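Liver RNA of 20 mice was sequenced from stranded paired-end libraries, per the labels' protocols. STAR, R 4.05, limma and the mm10 build are named, without roles, per the submitters' processing notes, and the counting program, annotation and strand setting are not given in the sources used here. Per gene, the authors' table was read as holding unscaled expected counts, judged from the values alone. All values used were whole, and only 2 genes, which were left out, held others, so plain counts are possible. Lines whose first value was a displaced 1 or text were left out. This removed genes with a true count of 1 in OC running replicate 1, and 0 tested genes had that value there against a mean of 7.5 in the other 4 OC running libraries. Genes passing filterByExpr were scaled by TMM and fitted in edgeR 4.0.16 (R 4.3.3) with 1 mean per group over all 20 libraries (common biological coefficient of variation 0.178). The Benjamini-Hochberg method was applied over all 10207 genes with a threshold of 0.05. CPM values use TMM-scaled totals.

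The 43 gene lists, the comparison and its tests were chosen with earlier results of these data known. In each direction the stable calls named, with at least 1 CPM and no predicted-gene symbol, were the 8 with the largest fold, the 5 with the smallest p and the 8 with the largest CPM difference. Each list gave up to 4 stable calls a direction and up to 2 members that did not pass. A few genes chosen by this rule are not reported here, and Otc, Ppara, S100a8, S100a9 and Greb1 were added after their values were seen. On counts simulated for this comparison over 10120 genes, the test recovered 53.5% of the changes of 1.5-fold, 79.2% of those of 2-fold and 96.4% of those of 4-fold, and 6 of 155 calls were unchanged genes. Only 71, 72 and 56 genes carried these changes, against 1343 calls in the data, and each gene varied independently. The rates in the data may therefore differ. Alternatives were RLE factors, library totals, DESeq2 1.42.0, limma 3.58.1 voom, no and a stricter filter, the 10 running libraries alone, and leaving out single libraries. Coordinates are from GENCODE vM21 (GRCm38, the build mm10 names), and promoters from RefSeq, where Mup20, Bmp7 and Hsd17b2 had no entry.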

Additional observations from a re-analysis of the deposited data

Results flagged for a closer look

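In 13 of 331 groups of 5 mice checked, over 168 genes, one mouse stood apart from the other 4. Chance flags about 1 group in 20. Among vehicle mice, replicate 5 was highest for Mup20 (88.7 CPM, the next 34.9), Por (1511, the next 989) and Cyb5a (1816, the next 1386). Replicate 1 was highest for C7 (1.14 CPM, the next 0.858) and Dpy19l3 (5.26, the next 3.72), and replicate 2 for Egr1 (167, the next 119). Among OC mice, replicate 3 was highest for Hamp (628 CPM, the next 446) and Srd5a1 (77.6, the next 59.3). Replicate 4 was highest for Ces1e (150.0 CPM, the next 108), replicate 2 for Fmo5 (2625, the next 1639) and replicate 5 for Dpy19l3 (49.1, the next 30.1). Vehicle replicate 4 was highest for Otc (705 CPM, the next 632), and vehicle replicate 1 was the only vehicle mouse with any Spo11 (0.19 CPM). All of these genes except Spo11 are stable calls, so each of those kept its call without that mouse.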

How the results depend on the processing

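Of 3184 values of 168 genes under the alternatives, 3120 kept direction and side of the threshold, 52 of genes that did not pass came to pass, 12 calls were lost and 0 reversed. The lost calls were Abcg2 (adjusted p = 0.0565) and Rpl4 (0.0563) without the 3 libraries with muscle genes, an alternative chosen after seeing the data, Rspo3 with library totals (0.0690), and S100a8 under 9 settings (0.0540 to 0.168). The 535 stable calls were all kept with RLE factors, DESeq2 and voom, 526 with the 10 running libraries alone and 510 without the muscle-containing libraries. With library totals 1390 genes were called higher and 335 lower. Leaving out 1 library gave 817 to 1679 calls in all, 453 to 910 higher and 347 to 803 lower, where 803 was without sedentary vehicle replicate 2 and the most without a running library was 769. Without OC replicate 1 there were 817 calls (453 higher, 364 lower), without OC replicate 3 there were 835 (347 lower), and without vehicle replicate 3 or 4 there were 398 or 405 lower. The difference of effects gave 33 calls in DESeq2 and 0 to 2 without single libraries (2 without sedentary vehicle replicate 1, 1 without OC running replicate 2 or 4). No paired analysis was possible because the labels carry no replicate numbers shared between groups. With 5 mice a group 53.5% of simulated 1.5-fold changes were recovered, so genes that did not pass may still differ.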

Other observations

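Further stable calls outside the lists, chosen after their values were seen, are given as values. Gpcpd1, which breaks down glycerophosphocholine, rose from 75.2 ± 23.1 to 676 ± 221 CPM (SD, n = 5), and Dpy19l1, a relative of Dpy19l3, from 39.2 ± 2.01 to 67.0 ± 5.599 CPM. Dpagt1, the first enzyme of N-glycan assembly, rose from 28.5 ± 3.17 to 47.6 ± 6.37 CPM, Lmf1, which matures lipoprotein lipase, from 45.5 ± 2.99 to 77.2 ± 10.2 CPM, Tpmt, which methylates thiopurines, from 29.0 ± 6.07 to 63.1 ± 9.45 CPM, and Twnk, the helicase of mitochondrial DNA, from 42.5 ± 3.40 to 76.3 ± 15.4 CPM. Abhd2, a lipase that binds progesterone, fell from 484 ± 64.5 to 142 ± 49.8 CPM and Adora1, an adenosine receptor, from 42.3 ± 9.23 to 13.9 ± 1.42 CPM. Acat1, the mitochondrial acetoacetyl-CoA thiolase, fell from 861 ± 165 to 482 ± 29.4 CPM, Gk, glycerol kinase, from 185 ± 17.4 to 108 ± 15.4 CPM, Bche, butyrylcholinesterase, from 275 ± 17.4 to 172 ± 19.2 CPM, and Chdh, choline dehydrogenase, from 291 ± 29.6 to 182 ± 29.2 CPM. Egln1, an oxygen sensor, fell from 44.7 ± 2.38 to 30.8 ± 2.84 CPM in running mice (log2 fold change -0.54, SE 0.07). Its log2 fold change was 0.02 in sedentary mice, and the difference of effects did not pass (-0.55, SE 0.11, adjusted p = 0.0995).

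Other genes were almost silent on vehicle. Tinag had 0 counts over the 5 vehicle libraries and 21, 10, 22, 9 and 28 in the 5 OC libraries, which is at least 30.1-fold higher when the empty group is set to 3 counts in all, and Nat8f6 had 0 and 76, at least 25.4-fold higher. Trex2 had 0 counts on vehicle and 12, 2, 51, 5 and 95 on OC, at least 55.1-fold higher, with most of its counts in 2 mice. Spo11 had 3 and 263 counts, or 87.8 times as many (exact 95% interval 29.7 to 428.6). Trex2 and Spo11 were called but not stable.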
